A study of Mus musculus with 15 samples.

Results

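The cytosolic ribosomal protein genes measured here encode the proteins of the small and large subunits of the ribosome that works in the cytoplasm. They were taken as every gene whose platform symbol has the form of a ribosomal protein name (Rps or Rpl followed by its number, Rplp for the stalk proteins, with the letters a, x or l allowed after the number). The rule found 48 of the 18193 genes on the array, and 45 of them lay above the filter on low signal, among 13644 genes tested. Each gene was read by its brightest probe set that names no other gene. Of the 45 tested, 19 belong to the small subunit, 20 to the large subunit, 2 to the stalk (Rplp0 and Rplp2) and 4 are paralogues of a core gene (Rpl22l1, Rpl7l1, Rps27l and Rps4l). The 3 genes below the filter were Rpl39l, Rpl3l and Rps16, whose probe sets averaged log2 values of 3.67, 3.18 and 3.10. Rpl3l is known as a paralogue of striated muscle. The single Rps16 probe set was as dim as these paralogues, and no value of Rps16 is read from it.

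Expression was measured with Affymetrix arrays in the auditory nerve of CBA/CaJ mice, an inbred strain with no engineered allele named in the labels. Young adults aged 5 to 12 weeks heard 2 hours of noise (106 dB SPL, an octave band from 8 to 16 kHz) or were left unexposed as controls, and tissue was taken immediately, 1, 7 or 14 days after noise. Each of the 5 groups held 3 arrays, with 1 animal per array and its 2 ears pooled. The controls were 3 females and the 1-day group was 3 males. The immediate, 7-day and 14-day groups each held 2 females and 1 male. The tissue was the core of the cochlea, called the modiolus, dissected free of bone, of the lateral wall and of much of the sensory epithelium, so it holds nerve fibres and their Schwann cells beside other cells. Markers of the labelled tissue were present, with mean log2 values from 9.00 for Mag to 13.93 for Mbp over 9 myelin genes and from 5.34 for Gap43 to 13.43 for Snap25 over 12 neuronal genes. Bone genes gave signal as well, up to a mean of 11.22 for Dmp1. Array medians lay between 5.87 and 5.92. All values below are log2 intensities, a difference is a difference of group means on that scale, and the number of arrays limits the precision.

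A ribosome is built from 4 ribosomal RNAs and about one copy of each ribosomal protein, so cells make the proteins in matched amounts. Most ribosomal protein messages start with a run of pyrimidines, called a 5′ terminal oligopyrimidine or TOP sequence, through which the mTORC1 kinase and the protein LARP1 set how strongly they are translated. In nerve, ribosomes lie in the neuron's cell body, in glia and, in smaller number, in axons, where messages for ribosomal proteins are also carried.

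The start regions of the members were read from RefSeq (assembly GRCm38.p6), in a window from 50 bases before to 30 bases after each annotated start, to show the shared feature of the family beside the expression values. A start region was in the table for 42 of the 48 genes. On the coding strand, 28 of the 42 (66.7%) held a run of at least 8 pyrimidines (only C and T), against 33.6% of 27025 genes. On the other strand, read the same way, the shares were 21.4% and 35.5%. A run that touched the annotated start itself was found in 13 of the 42 (31.0%) and in 6.30% of all genes. The letters CCGGAAG, on either strand, were found in 23.8% of the 42 members and in 5.49% of all genes, and TATAAA in 7.14% and 5.15%. These are matches of letters, and an annotated start can lie some bases away from the start used in this tissue. No site was measured here. A match of CCGGAAG or TATAAA can share a few pyrimidine letters with such a run. Where a gene had several listed starts, a match in any of them counted.

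The sequences below are start regions of genes that differed between times, read 5′ to 3′ on the gene's strand, with the longest pyrimidine run in capitals. The first group has the run at or just after the annotated start.
Rps18 (chr17:33955636-33955715, minus strand): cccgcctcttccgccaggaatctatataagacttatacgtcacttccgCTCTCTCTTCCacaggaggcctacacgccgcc
Rpl35 (chr2:39005102-39005181, minus strand): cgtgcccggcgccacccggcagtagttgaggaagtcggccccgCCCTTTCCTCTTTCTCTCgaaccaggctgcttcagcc
Rpl38 (chr11:114668530-114668609, plus strand): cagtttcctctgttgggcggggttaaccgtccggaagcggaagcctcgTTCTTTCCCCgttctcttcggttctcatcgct
Rpl13a (chr7:45128716-45128795, minus strand): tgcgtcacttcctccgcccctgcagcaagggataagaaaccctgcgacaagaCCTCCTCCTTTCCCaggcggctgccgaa
Rps26 (chr10:128626477-128626556, minus strand): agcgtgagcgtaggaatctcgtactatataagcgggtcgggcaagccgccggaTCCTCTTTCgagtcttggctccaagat
Rpl22l1 (chr3:28805458-28805537, plus strand): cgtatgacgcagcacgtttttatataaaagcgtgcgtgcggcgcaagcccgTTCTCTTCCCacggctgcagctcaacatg
The next group was called in the same comparisons although its longest run within the window is under 8 pyrimidines.
Rps2 (chr17:24720013-24720092, plus strand): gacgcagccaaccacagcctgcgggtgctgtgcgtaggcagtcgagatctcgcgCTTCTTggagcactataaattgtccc
Rplp0 (chr5:115559417-115559496, plus strand): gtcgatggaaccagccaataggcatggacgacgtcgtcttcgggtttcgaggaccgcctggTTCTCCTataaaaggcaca
Rps3 (chr7:99483680-99483759, minus strand): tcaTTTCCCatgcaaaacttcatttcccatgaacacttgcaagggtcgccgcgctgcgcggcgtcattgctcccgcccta
Of the 15 members that rose between the immediate and the 1-day time, all had a start region in the table. A run of at least 8 pyrimidines was present in 11 of these 15, and a run touching the start in 4. Among all 42 members with a start region these counts were 28 (66.7%) and 13 (31%).

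Differences between groups were small over the whole family. Relative to the control mean, the median of the 45 genes on a single array was 0.02, -0.01 and -0.01 in the 3 controls. It was -0.03, -0.11 and -0.08 immediately after noise and 0.05, 0.07 and 0.06 at 1 day. At 7 days it was -0.08, -0.04 and 0.02, and at 14 days -0.01, -0.01 and 0.03. All 3 immediate arrays thus lay below all controls and all 3 arrays at 1 day above them, while the later groups overlapped the controls. Of the 45 genes, between 4 and 9 lay above their control mean on an immediate array, and between 34 and 42 did so on a 1-day array. Other bright genes, 500 non-members with a mean of at least 11, had single-array medians between -0.02 and 0.03 relative to control. Their group medians were no further from their control mean than 0.01 at any time. That brightness was reached by 33 members outside the paralogues. In whole tissue, fewer cells of a type and less message per cell cannot be told apart.

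**Figure D1:**
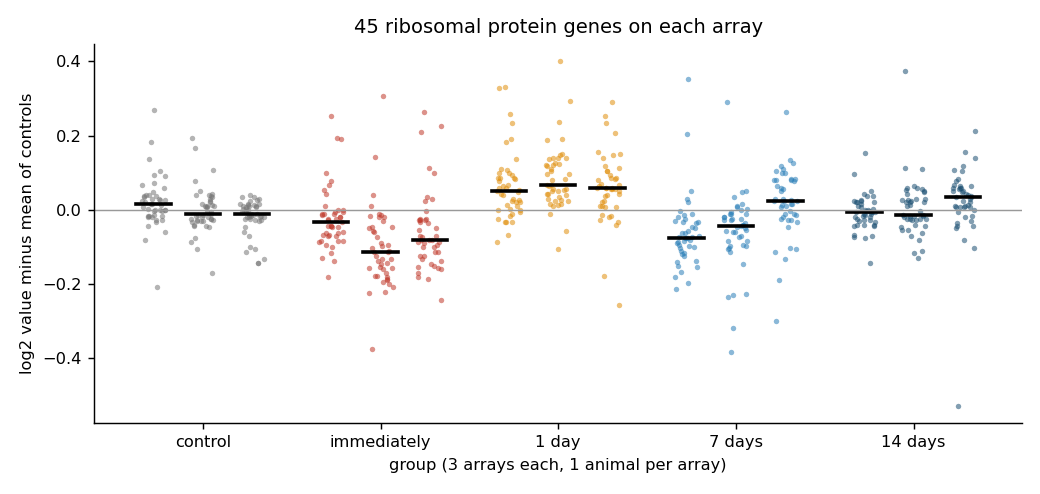
The log2 value of each of the 45 tested ribosomal protein genes minus its control mean (vertical axis) on each of the 15 arrays, grouped by time after noise. Each point is a gene and each black bar the median of an array, which lies between -0.11 and -0.03 immediately after noise and between 0.05 and 0.07 at 1 day.

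Immediately after noise the ribosomal protein genes lay slightly below control, and Rps3 was the only member that passed the test. The differences of the 45 genes had a median of -0.08, with 37 negative, beside a median of -0.02 over all genes tested. In limma with Benjamini-Hochberg adjustment, 1 of 45 was called, against 0.931% of all genes in either direction and 0.352% called lower. At an unadjusted p under 0.05 there were 17 members, against 15.5% of all genes. In 19 of the 45, all 3 immediate arrays lay below all 3 controls, against 12.3% of all genes. The small subunit had a median of -0.10, the large subunit -0.08, the stalk pair -0.04, and the 4 paralogues 0.08. The 33 members outside the paralogues with a mean of at least 11 had a median of -0.09, and the 500 other genes of that brightness a median of 0.01.

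Rps3 encodes a small-subunit protein at the entry of the messenger RNA channel that is also known for a role in DNA repair. It read 12.34, 12.40 and 12.34 in controls and 12.18, 12.14 and 12.19 immediately after noise. It returned to 12.37 on all 3 arrays at 1 day. The immediate values lay below every array of the other groups. The difference from control was -0.19 ± 0.04 (SE, limma adjusted p = 0.0444, n = 3 arrays each), a ratio of 0.877. Among its 3 probe sets the immediate difference ranged from -0.19 to 0.01, the others being dimmer, down to a mean of 4.61. The call was lost in 13 of the 15 fits that left out 1 array, with adjusted p up to 0.175, and with sex as a term (adjusted p = 0.0837, 0 of 45 members called against 0.579% of all genes).

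Rps18 and Rpl22 had the next smallest p. Rps18, a protein of the small subunit's head, read 11.88, 11.85 and 11.90 in controls and 11.74, 11.70 and 11.69 immediately after noise, a difference of -0.17 (limma adjusted p = 0.0988). Rpl22, a large-subunit protein that also binds RNA outside the ribosome, read 11.90, 11.94 and 11.91 in controls and 11.80, 11.71 and 11.77 after noise, a difference of -0.16 (limma adjusted p = 0.0718). In neither gene did the groups overlap, and neither passed the adjusted test. Rps6, the protein that S6 kinase phosphorylates, differed by -0.22 from a dim probe set, with 7.94, 8.14 and 7.84 in controls and 7.93, 7.60 and 7.73 after noise, and the groups overlapped (limma adjusted p = 0.243). Leaving out the third array at 7 days, which is in neither group but enters the shared spread, brought the count to 3, with Rps18 (adjusted p = 0.0349) and Rpl22 (adjusted p = 0.0494) added to Rps3. Neuronal marker genes summed to 15.27 to 15.34 (log2) in controls and 15.36 to 15.37 immediately after noise. Of the 12 neuronal markers, 7 were positive and 5 negative, with a median of 0.03 and 0 called. The summed macrophage markers overlapped, at 11.17 to 11.39 and 11.01 to 11.30. Summed bone markers overlapped as well, at 12.08 to 12.99 and 11.94 to 12.62, with 7 of 8 negative and 0 called. The part of these markers in the ribosomal protein values was not tested.

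At 1 day the members lay slightly above control and none passed the test. The median difference was 0.06, with 40 of 45 positive, beside -0.01 over all genes. In limma 0 of 45 were called, against 3.18% of all genes, and 8 members had an unadjusted p under 0.05, a share near the 17.9% over all genes. In 17 members all 3 arrays at 1 day lay above all 3 controls, against 10.1% of genes. All 20 large-subunit genes were positive, with a median of 0.07, and 16 of 19 small-subunit genes were, with a median of 0.03. The smallest p belonged to Rpl22l1 with 0.25 ± 0.08 (limma adjusted p = 0.0966), Rplp0 with 0.14 ± 0.05 (adjusted p = 0.109) and Rps2 with 0.11 ± 0.04 (adjusted p = 0.123). Because all controls were female and all 1-day animals male, sex and time are tied in this comparison. The sex term rests on the other groups, and with it the median became 0.09. That term alone called 0 of 45 members between males and females, against 0.0440% of all genes, and 0 members had an unadjusted p under 0.05 for it, against 4.15% of all genes. Its male minus female values were mostly negative over the members, from -0.09 for Rpl39 to 0.22 for Rps4l. Macrophage markers were higher at 1 day than in control, 9 of 14 being called, with a median difference of 0.96 and a summed level of 11.98 to 12.10 (log2) against 11.17 to 11.39. Bone markers were negative in 8 of 8, with a median of -0.89 and 2 called lower, and their summed level was 11.27 to 11.75 against 12.08 to 12.99. Myelin markers had 3 of 9 called lower, and summed to 15.46 to 15.55 against 15.58 to 15.66. Neuronal markers summed to 15.15 to 15.24 against 15.27 to 15.34. Of the 12 neuronal markers, 8 were negative and 4 positive, and the 1 called was higher. Of 3 tested muscle markers, 1 was called lower. The part of these markers in the ribosomal protein values was not tested.

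The most members were called between the immediate and the 1-day time. All 3 arrays at 1 day lay above all 3 immediate arrays in 35 of the 45 genes, against 15.4% of all genes. The differences had a median of 0.14, with 43 positive, beside 0.01 over all genes. In limma 15 of 45 (33.3%) were called, all higher at 1 day, against 8.39% of all genes in either direction and 4.02% called higher. The 33 bright members had a median of 0.14 and 14 calls, while the 500 other genes of that brightness had a median of -0.02. The called genes were 5 of 19 of the small subunit (Rps2, Rps3, Rps18, Rps19 and Rps26), 8 of 20 of the large subunit (Rpl6, Rpl10a, Rpl13a, Rpl19, Rpl22, Rpl27, Rpl35 and Rpl38), Rplp0 of the stalk, and the paralogue Rps27l. Ratios of the called genes ran from 1.09 to 1.20. All 15 were below the control mean immediately and above it at 1 day, and this comparison shares its arrays with the comparisons against control.

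**Figure D2:**
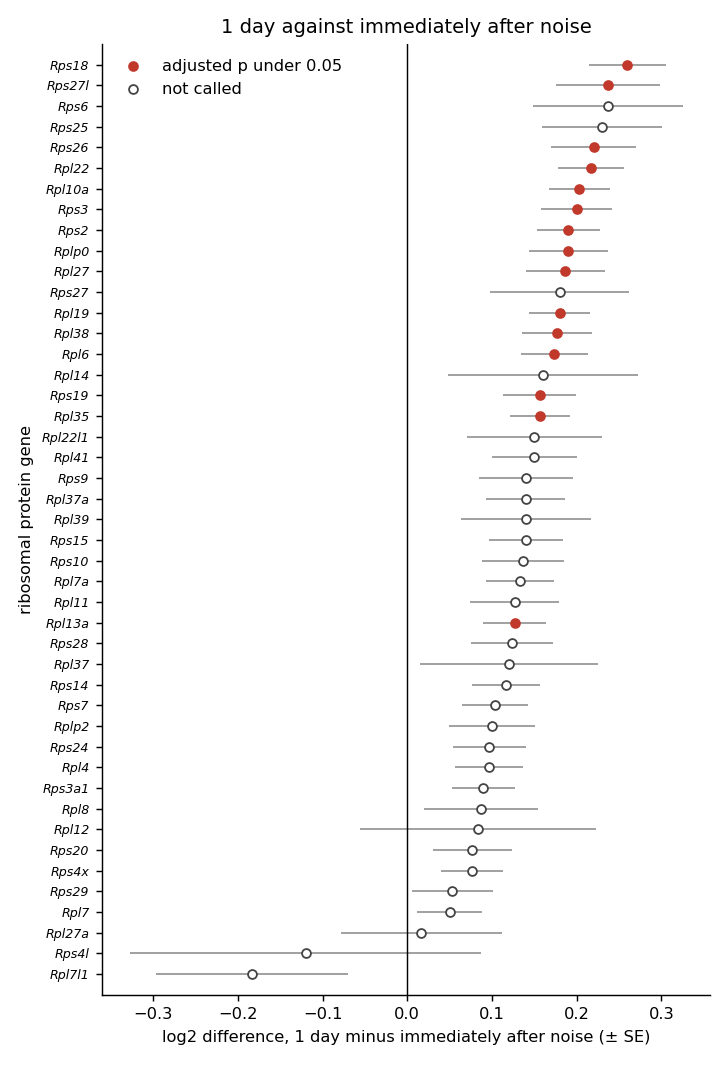
The difference of mean log2 values, 1 day minus immediately after noise (horizontal axis, ± standard error of the limma fit), for each of the 45 tested ribosomal protein genes. Filled points are the 15 genes called at an adjusted p under 0.05, all higher at 1 day, and the 2 genes left of 0 are Rps4l and Rpl7l1.

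Rps18 had the largest called difference. It read 11.74, 11.70 and 11.69 immediately after noise and 11.96, 11.98 and 11.97 at 1 day, which was 0.26 ± 0.05 higher (limma adjusted p = 0.00459, n = 3 each), a ratio of 1.20. The groups did not overlap, and its 4 probe sets above the filter all differed in the same direction, by 0.19 to 0.46. Rps27l, a paralogue of Rps27 that is known as a p53 target, read 10.20, 10.04 and 10.12 and then 10.39, 10.34 and 10.34, a difference of 0.24 ± 0.06 (adjusted p = 0.0298). Rps26, a protein at the messenger RNA exit of the small subunit, read 11.93, 11.75 and 11.84 and then 12.04, 12.05 and 12.09, a difference of 0.22 ± 0.05 (adjusted p = 0.0163). In both genes the groups were apart. The Rps27l call was lost without the immediate array 2 (adjusted p = 0.103) or 3 (0.0914) or the 1-day array 1 (0.0791), 2 (0.0764) or 3 (0.0686), and the Rps26 call without the immediate array 2 (0.0638) or 3 (0.0601) or the 1-day array 2 (0.0505) or 3 (0.0604).

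In the large subunit, Rpl10a and Rpl22 had the smallest p. Rpl10a, whose protein sits at the moving L1 stalk, read 12.26, 12.20 and 12.23 immediately and 12.43, 12.44 and 12.43 at 1 day, a difference of 0.20 ± 0.04 (limma adjusted p = 0.00494). Rpl22 rose to 11.97, 11.98 and 11.98, which was 0.22 ± 0.04 above the immediate mean (adjusted p = 0.00517). The 3 values of each gene at 1 day lay within 0.01 of each other. Rpl19 rose by 0.18, Rpl6 by 0.17 and Rpl35 by 0.16, the last with all 5 tested probe sets positive, from 0.16 to 0.27. Rpl13a, whose protein is known to leave the ribosome and repress inflammatory messages after interferon treatment, read 12.94, 12.83 and 12.91 and then 13.01, 13.03 and 13.02, a difference of 0.13 ± 0.04 (adjusted p = 0.0488). The groups were apart by less than 0.1, and the call was lost under 8 of the other processing choices, with adjusted p up to 0.237 for the mean over its probe sets. Rpl11, known for binding Mdm2 when ribosome assembly is disturbed, differed by 0.13 and did not pass (adjusted p = 0.152).

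Of the stalk pair, Rplp0, the base of the stalk that recruits elongation factors, read 11.80, 11.73 and 11.80 immediately after noise and 11.91, 11.96 and 12.03 at 1 day, a difference of 0.19 ± 0.05 (limma adjusted p = 0.0242). Rplp2 read 12.69, 12.65 and 12.61 and then 12.70, 12.82 and 12.73, a difference of 0.10 that did not pass (adjusted p = 0.245). Both had 3 values at 1 day above the 3 immediate values, by a margin of 0.01 for Rplp2.

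The count of 15 rested on single arrays. Rps2, Rps3, Rps18, Rpl10a, Rpl19 and Rpl22 were called in all 15 fits that left out 1 array, and each of the other 9 genes lost its call in at least 1 of them, Rpl13a in 12. The count fell to 6 without the immediate array 2, to 6 without the immediate array 3, to 6 without the 1-day array 2 and to 9 without the 1-day array 3. With sex as a term 13 members were called, 12 of them among the 15, against 4.78% of all genes, and Rpl13a, Rps19 and Rps27l were lost. Macrophage markers also differed in this comparison: 11 of 14 were called higher at 1 day, with a median difference of 1.08, and their summed level was 11.01 to 11.30 (log2) immediately and 11.98 to 12.10 at 1 day. Summed neuronal markers were lower at 1 day, at 15.15 to 15.24 against 15.36 to 15.37, but single neuronal markers went both ways. Of 12 neuronal markers, 7 were negative and 5 positive, with 3 called lower and 2 called higher. Summed myelin markers were lower too, at 15.46 to 15.55 against 15.59 to 15.62, with 7 of 9 negative and 2 called lower. Summed bone markers were lower too, at 11.27 to 11.75 against 11.94 to 12.62, with 1 of 8 called. The part of these markers in the ribosomal protein values was not tested.

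**Figure D3:**
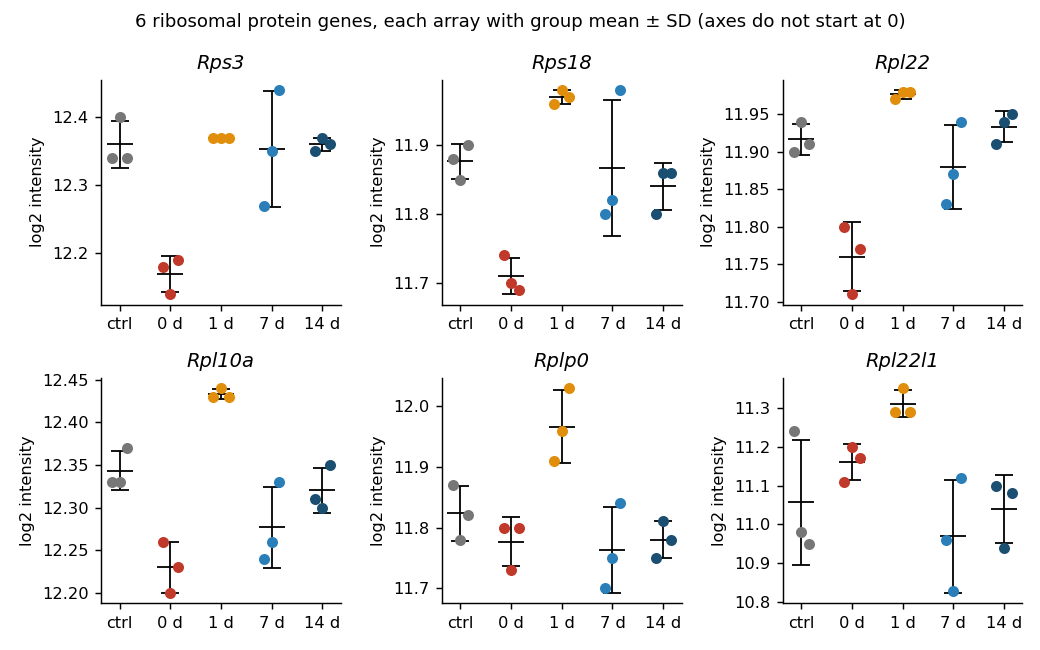
Log2 intensity (vertical axes, which do not start at 0) of 6 ribosomal protein genes on each array by time after noise, with the group mean and SD as bars. Rps3, Rps18, Rpl22 and Rpl10a are lowest immediately after noise, Rplp0 and Rpl22l1 are highest at 1 day, and Rpl22l1 is not lowered immediately, with 11.11 to 11.20 against 10.95 to 11.24 in controls.

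From 1 to 7 days 6 members fell and none rose by the test. The median difference was -0.09, with 42 of 45 negative, beside 0.02 over all genes. In limma 6 members (13.3%) were called, all lower, against 9.35% of all genes in either direction and 4.22% called lower. All 3 arrays at 7 days lay below all 3 at 1 day in 19 genes, against 9.77% of genes. The called genes were Rpl27a, Rpl22l1, Rps25, Rplp0, Rpl10a and Rps2. Rplp0, Rpl10a and Rps2 were also among the 15 that rose before, and the other 3 were not. Of the 15, Rps27l (-0.20, limma adjusted p = 0.0504) and Rps26 (-0.16, adjusted p = 0.0528) narrowly missed the threshold. With every probe set tested by itself, 11 of 94 were called, all lower, against 8.50% of all sets. These included sets of Rpl27 (2 of 3), Rpl35 (1 of 5), Rps18 (1 of 4) and Rps27l (1 of 3), which had risen before.

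Rplp0 fell to 11.70, 11.75 and 11.84, which was -0.20 ± 0.05 (limma adjusted p = 0.0162). Rpl10a fell to 12.24, 12.26 and 12.33, a difference of -0.16 ± 0.04 (adjusted p = 0.0166). Rps2 fell from 12.32, 12.35 and 12.29 to 12.13, 12.15 and 12.22, a difference of -0.15 ± 0.04 (adjusted p = 0.0207). All 3 genes had 7-day values below every 1-day value and lost the call in 2 (Rplp0, Rpl10a) or 3 (Rps2) of the fits that left out 1 array. Their 7-day values lay in the control range or within 0.09 of it. The larger falls were in genes read by dimmer probe sets or in a paralogue. Rpl27a read 9.35, 9.15 and 9.11 at 1 day and 8.81, 8.79 and 8.91 at 7 days, a difference of -0.37 ± 0.09 (adjusted p = 0.0270), and it read 9.33 and 9.25 on 2 of the immediate arrays as well. Rps25 read 7.99, 7.97 and 7.85 and then 7.64, 7.62 and 7.60, a difference of -0.32 ± 0.07 (adjusted p = 0.0150). In both genes the groups did not overlap.

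The count of 6 also rested on single arrays. It was 0 without the 1-day array 2, 2 without the 7-day array 2, and 11 without the 7-day array 3, the one whose median member lay 0.02 above control. Macrophage markers moved in the same interval, 10 of 14 being called lower, against 4.22% of all genes. The 7-day arrays ranged from 11.09 to 11.66 in the summed level of these markers. Myelin markers were positive in 9 of 9, with 1 called higher, and bone markers in 7 of 8, with 0 called. Neuronal markers were positive in 9 of 12 and negative in 3, with 1 called higher. The part of these markers in the ribosomal protein values was not tested. With sex as a term 3 members were called (Rplp0, Rpl10a and Rps2), against 3.29% of all genes, and the calls of Rpl22l1 (adjusted p = 0.0770), Rpl27a (0.106) and Rps25 (0.0736) were lost. Rps25 lost its call without the 1-day array 2 (0.0638), Rpl22l1 without the 1-day array 2 (0.0725) or the 7-day array 2 (0.0684), and Rpl27a without the 1-day array 1 (0.0924) or 2 (0.0653) or the 7-day array 1 (0.0612) or 2 (0.0783).

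At 7 and 14 days no member differed from control by the test. The median at 7 days was -0.03, with 33 of 45 negative, and limma called 0 members, against 0.0220% of all genes. The smallest p belonged to Rpl27a (-0.19 ± 0.09, adjusted p = 0.483), Rpl10a (-0.07 ± 0.04, adjusted p = 0.518) and Rps28 (-0.08 ± 0.05, adjusted p = 0.547). At 14 days the median was 0.00 and limma called 0 members, against 0.00% of all genes, with Rpl7l1 (0.12 ± 0.11, adjusted p = 0.848), Rpl37a (0.05 ± 0.05, adjusted p = 0.856) and Rpl4 (0.04 ± 0.04, adjusted p = 0.856) first by p. In both comparisons 0 members had an unadjusted p under 0.05, against 11.2% and 7.85% of all genes. Between 7 and 14 days limma called 0 members, against 0.00% of all genes, and 1 had an unadjusted p under 0.05 (2.10% of all genes did), Rpl27a with 0.24 ± 0.09 (adjusted p = 1.00). Setting the 75th percentile of each array equal moved the 14-day median to -0.01, so its sign has no meaning at this size.

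A test over all 5 groups at once, limma's moderated F test, called 7 members, against 6.75% of all genes. They were Rpl10a and Rpl22 (both adjusted p = 0.0219), Rps3 (0.0257), Rps18 (0.0258), Rps2 (0.0345), Rplp0 (0.0493) and Rpl19 (0.0499). Each of the 7 had its lowest group mean immediately after noise or, for Rplp0, at 7 days, and its highest at 1 day.

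The paralogues were read beside their core genes. Rpl22l1, a close relative of Rpl22 that can take its place in the ribosome, read 11.24, 10.98 and 10.95 in controls and 11.11, 11.20 and 11.17 immediately after noise, when Rpl22 was low. The difference between the pair, set to 0 at the control mean, was -0.10, -0.10 and 0.20 in controls, 0.17 to 0.35 immediately and 0.17 to 0.23 at 1 day, and then -0.18 to 0.04 at 7 days. The immediate and control values of the pair's difference overlapped because of 1 control array. Rpl22l1 itself reached 11.29, 11.35 and 11.29 at 1 day, above all controls, and fell by 0.34 ± 0.08 to 7 days (limma adjusted p = 0.0173). The difference between Rps27l and Rps27, set to 0 likewise, was -0.05 to 0.09 in controls, -0.04 to 0.01 immediately and -0.11 to 0.18 at 1 day. At 7 days it was -0.08 to -0.01 and at 14 days -0.17 to 0.02, overlapping the controls at every time. Rps27 differed by 0.18 from the immediate to the 1-day time on a dim probe set and did not pass (adjusted p = 0.192). On their brightest probe sets Rpl7l1 differed by -0.18 and Rpl7 by 0.05 in that interval, and neither passed (adjusted p = 0.351 and 0.469). With every probe set tested by itself, 1 of 3 sets was called in each of the 2 genes. The 3 sets of Rpl7l1 ranged from -0.27 to 0.43 there, and those of Rpl7 from 0.05 to 0.17. Immediately after noise the Rpl7l1 sets ranged from -0.43 to 0.20, with 1 called, so no direction is given for Rpl7l1. Rps4l spread from 8.31 to 9.21 over the 15 arrays, wider than any difference between its group means, beside Rps4x at 12.64 to 12.78. Rpl39l lay below the filter, and Rpl39, on the X chromosome, differed by 0.14 from the immediate to the 1-day time without passing (adjusted p = 0.282).

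Probe sets shared with other symbols were read separately. Besides the 103 probe sets that name a single ribosomal protein gene, 110 name such a gene together with other symbols, and 28 ribosomal protein symbols occur only on these. The ribosomal protein messages have many processed pseudogenes, and the source of signal on such probe sets cannot be named. In a separate fit over 7617 probe sets with several or no symbol or of control type, 105 of them were tested. From the immediate to the 1-day time 16 were called, all higher, against 2.13% of that fit, and 100 of 105 were positive with a median of 0.12. From 1 to 7 days 8 were called, all lower, against 2.82%, with 96 negative and a median of -0.10. Immediately after noise 1 was called lower, against 0.0919%, with 87 negative and a median of -0.08.

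A further 2 tested ribosomal protein genes have names outside the rule. Rpsa, a small-subunit protein also known as the laminin receptor, read 12.12, 12.20 and 12.23 in controls, 11.99, 11.91 and 12.06 immediately and 12.24, 12.23 and 12.17 at 1 day. The immediate values were the lowest and lay apart from both other groups. It differed by -0.20 from control (limma adjusted p = 0.0509, not passing), rose by 0.23 ± 0.04 to 1 day (adjusted p = 0.00828) and fell by 0.18 ± 0.04 to 7 days (adjusted p = 0.0204). With the mean over its probe sets in place of the brightest, neither the rise (adjusted p = 0.877) nor the fall (0.340) passed, and the fall did not pass with sex as a term (0.0928) or without the 1-day array 1 (0.0555) or 2 (0.0796) or the 7-day array 2 (0.0625). Fau, which encodes a fused ubiquitin-like protein and small-subunit protein, differed by -0.10 immediately (adjusted p = 0.231) and by 0.11 from the immediate to the 1-day time (adjusted p = 0.0764).

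The other genes of the translation machinery were described from fixed lists. Of 14 tested genes of translation factors and other TOP messages, 4 were called higher at 1 day than immediately and none lower (28.6%, against 8.39% of all genes), with a median of 0.15. These were Btf3, a chaperone at the nascent chain (0.28 ± 0.05, limma adjusted p = 0.00407), Eif3e (0.30 ± 0.06, adjusted p = 0.00715), the RNA-binding Hnrnpa1 (0.22 ± 0.05, adjusted p = 0.0169) and Eif4b (0.16 ± 0.05, adjusted p = 0.0409). Btf3 and Eif3e kept this call in all 15 fits that left out 1 array, Hnrnpa1 lost it in 3 and Eif4b in 8. With the mean over its probe sets Btf3 did not pass (adjusted p = 0.266). Btf3 was also the only member of this list called at 1 day against control (0.21 ± 0.05, adjusted p = 0.0268), with 10.83, 10.89 and 10.91 against 10.67, 10.71 and 10.61. This is 7.14% of the list, against 3.18% of all genes. The values of Btf3 at 1 day lay above every control. Its call was lost in 4 of the 15 fits that left out 1 array, with adjusted p up to 0.126, and with sex as a term (0.138). Immediately after noise the list's median was -0.10, and Eef1d, a subunit of the exchange factor of elongation factor 1, was called lower (-0.27 ± 0.06, adjusted p = 0.0450). Eef1d was the only gene of the list called (7.14%), against 0.931% of all genes. Its call was lost in 9 of the 15 such fits, with adjusted p up to 0.175. From 1 to 7 days Btf3, Hnrnpa1 and Eef1b2 were called lower. These are 21.4% of the list, against 9.35% of all genes called in either direction and 4.22% called lower.

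Mitochondrial ribosomal proteins build the separate ribosome of the mitochondrion. Of 76 tested, 4 were called higher and 2 lower from the immediate to the 1-day time, a share of 7.89% near the 8.39% of all genes, with a median of 0.05. Immediately after noise 0 were called and 13 had an unadjusted p under 0.05, near the 15.5% of all genes, with a median of -0.06. Of 35 ribosome assembly factors, 2 (5.71%) were called higher at 1 day than immediately, against 4.02% of all genes: the nucleolar chaperone Npm1 (0.20 ± 0.05, limma adjusted p = 0.0289) and Nhp2, a protein of the particles that modify ribosomal RNA (0.31 ± 0.08, adjusted p = 0.0308). Both were called lower from 1 to 7 days, together with Gnl3 and Sbds, while Nob1 was called higher. These calls are 14.3% of the list, against 9.35% of all genes. From the immediate to the 1-day time Npm1 lost its call in 5 of the 15 fits that left out 1 array and Nhp2 in 4, and both with sex as a term (adjusted p = 0.0884 and 0.0997). The assembly list's median was 0.04 from the immediate to the 1-day time.

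Of 16 genes of RNA polymerase I and its factors, which transcribe ribosomal RNA, 0 were called against control immediately or at 1 day, with 2 and 3 at an unadjusted p under 0.05, near the 15.5% and 17.9% of all genes. From the immediate to the 1-day time 2 were called lower, the catalytic subunit Polr1a (-0.32 ± 0.09, limma adjusted p = 0.0418) and the factor Taf1a (-0.42 ± 0.11, adjusted p = 0.0275), and the list's median was -0.11. These are 12.5% of the list, against 8.39% of all genes called in either direction. With sex as a term neither passed (adjusted p = 0.147 and 0.0655), and with 1 array left out Polr1a lost its call in 8 of 15 fits and Taf1a in 5. With the mean over its probe sets the adjusted p of Polr1a was 0.388. Of 18 genes of mTORC1, S6 kinase and Myc, 1 (5.56%) was called immediately after noise, against 0.931% of all genes. This was the Myc-network repressor Mxd4, called lower by -0.60 ± 0.08 (adjusted p = 0.00204). It read 9.45, 9.27 and 9.44 in controls and 8.88, 8.77 and 8.71 after noise, with no overlap. Mxd4 rose again by 0.44 ± 0.08 to 1 day (adjusted p = 0.00408), as did Eif4ebp2, a repressor of cap-dependent translation that mTORC1 phosphorylates (0.49 ± 0.10, adjusted p = 0.0100). These 2 calls are 11.1% of the list, against 8.39% of all genes. Both genes kept these calls with each array left out, and that of Eif4ebp2 did not hold for the mean over its probe sets (adjusted p = 0.614). Of 5 tested p53 genes, 0 were called immediately or at 1 day against control, and 1 and 3 had an unadjusted p under 0.05, too few genes for a share to be read.

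**Figure D4:**
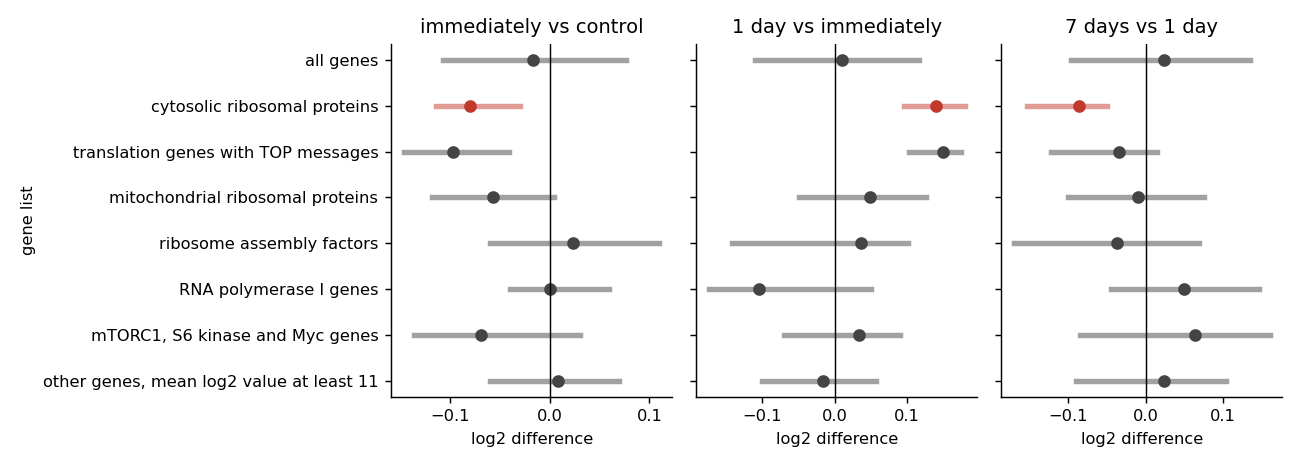
Median log2 difference (points) and the range from the 25th to the 75th percentile over genes (bars) of each gene list in 3 comparisons. The cytosolic ribosomal protein genes (red) have medians of -0.08, 0.14 and -0.09, beside -0.02, 0.01 and 0.02 over all genes tested.

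The array also carries 3 control probe sets for 18S ribosomal RNA, the RNA of the small subunit, at its 5′ end, its middle and its 3′ end. Ribosomal RNA has no poly(A) tail, and the labelling kit copies RNA from the poly(A) tail, so these sets do not measure the amount of ribosomes directly. Their order over the groups was not that of the ribosomal protein genes. The 5′ set read 12.37, 12.07 and 11.82 in controls and 12.49, 12.64 and 12.69 immediately after noise, when the proteins' messages were lowest. It read 12.06, 11.99 and 11.97 at 1 day, then 11.49, 11.04 and 11 at 7 days and 11.67, 11.38 and 11.30 at 14 days. The immediate arrays were the highest and the 7-day and 14-day arrays the lowest, all of them apart from the controls. At 7 days, when 0 of 45 protein genes were called, the 5′ set was lower by 0.91 on the log2 scale (-0.91 ± 0.13, limma adjusted p = 0.0152 in the separate fit). The 2 of 7617 probe sets called in that fit (0.0263%) were this set and the middle set.

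The middle set read 11.91, 11.61 and 11.31 in controls and 10.68, 10.49 and 10.28 at 7 days, a difference of -1.13 ± 0.13 (limma adjusted p = 0.00184), without overlap. The 3′ set read 9.67, 9.41 and 9.19 in controls and 9.32, 9.07 and 8.97 at 7 days, with overlap, and differed by -0.30 ± 0.15 (adjusted p = 0.620). At 14 days the differences were -0.64, -0.71 and -0.09 from the 5′ to the 3′ set, and none passed (adjusted p = 0.276, 0.276 and 0.993). Immediately after noise they were 0.52, 0.11 and 0.25, and none passed (adjusted p = 0.168, 0.799 and 0.592). From the immediate to the 1-day time the 5′ set was lower by -0.60 ± 0.13 (adjusted p = 0.0269), in the interval in which 15 ribosomal protein genes rose. The middle set differed by -0.35 (adjusted p = 0.206) and the 3′ set by -0.14 (adjusted p = 0.737), and neither passed. From 1 to 7 days the 5′ set was lower by -0.83 (adjusted p = 0.00532) and the middle set by -0.89 (adjusted p = 0.00355), and the 3′ set differed by -0.41 without passing (adjusted p = 0.160). The call of the 5′ set at 7 days was lost without the control array 1 (-0.77, adjusted p = 0.0521) or 2 (0.103), or without the 7-day array 2 (0.124) or 3 (0.109). The middle set kept its call at 7 days in all 15 such fits, and the immediate to 1-day call of the 5′ set was lost in 4 of them, with adjusted p up to 0.111.

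**Figure D5:**
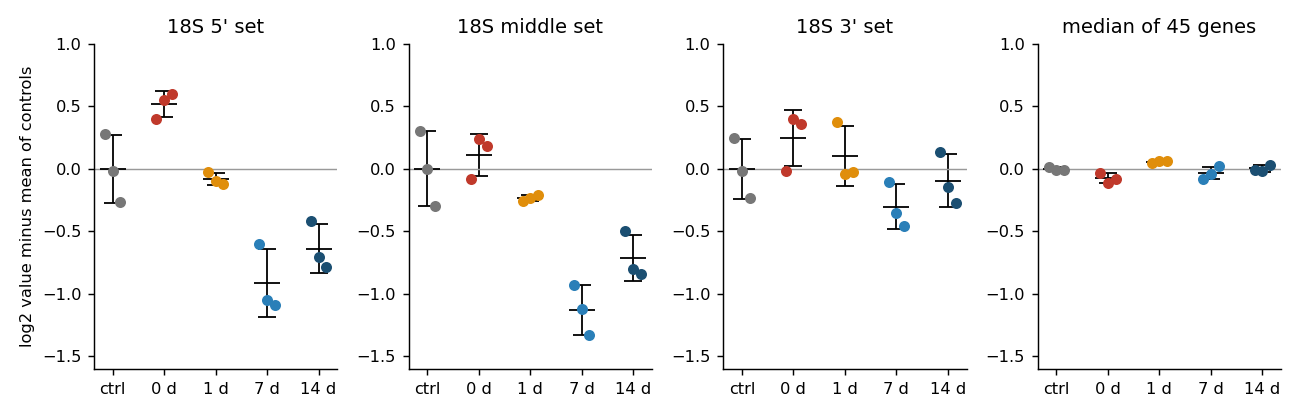
Log2 value minus the control mean for the 3 control probe sets of 18S ribosomal RNA and, in the last panel, for the median of the 45 ribosomal protein genes, on each array (points) with the group mean and SD (bars). The 5′ and middle sets are lower by 0.91 and 1.13 at 7 days, while the median of the protein genes stays between -0.11 and 0.07 on every array.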

How the data were processed

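The values were the log2 intensities the authors deposited, from 2.06 to 14.63, one table over 15 arrays. The submitters' processing notes name Affymetrix Expression Console, RMA and MAS5. Which of them gave the table, and their versions, are not given in the sources used here. Total RNA (50 ng) was labelled with a 3′ kit, per the labels' protocols. No further normalization was made. Near background, differences are understated, and the brightest sets may be compressed.

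Members and gene lists were chosen with earlier results of these data known. Genes were read by the probe set with 1 symbol and the highest mean, and the lowest 25% (at or below 4.70) were left out. Group means were fitted in limma 3.58.1 (R 4.3.3, lmFit and eBayes with trend) over all arrays, with 10 residual degrees of freedom, and tests were two-sided. p-values were adjusted by Benjamini-Hochberg over 13644 genes in each of 7 comparisons, which share arrays, and called under 0.05. The 18S sets were adjusted over 7617 probe sets. The functions were tested on simulated data. Named genes were, per time against control, up to 6 called rises and 6 called falls (with fewer than 3, the 3 smallest p), per consecutive pair the 3 largest called rises and falls, chosen stalk, paralogue and outside-rule genes, and the 2 largest called per pathway list against control. Genes named beyond this were chosen after their values were seen. Named without a probe set of 1 symbol, and not analysed here, were genes that include Rpl3, Rpl5, Rpl10, Rpl10l, Rplp1, Rps27a, Rpl36al and Rack1. Alternatives concerned filter, probe sets, variance model, array weights, scaling, sex, the replicate block and each array left out. No 2 arrays shared over 3.67% of identical values. Figures were drawn with matplotlib 3.10.9.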

Additional observations from a re-analysis of the deposited data

Results flagged for a closer look

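The comparisons of consecutive times test the difference between 2 times after noise directly. The 1-day group was all male and its neighbours in time were of mixed sex, so sex and time are partly tied here. With sex as a term, 12 of the 15 and 3 of the 6 calls below were kept. From the immediate to the 1-day time, 15 of 45 ribosomal protein genes differed by limma's test of the difference itself. The log2 differences were 0.26 for Rps18, 0.24 for Rps27l, 0.22 for Rps26 and Rpl22, 0.20 for Rpl10a and Rps3, 0.19 for Rplp0, Rps2 and Rpl27, 0.18 for Rpl19 and Rpl38, 0.17 for Rpl6, 0.16 for Rpl35 and Rps19, and 0.13 for Rpl13a. In the same interval Rpsa differed by 0.23, Btf3 by 0.28, Eif3e by 0.30, Hnrnpa1 by 0.22, Eif4b by 0.16, Npm1 by 0.20, Nhp2 by 0.31, Mxd4 by 0.44, Eif4ebp2 by 0.49, Polr1a by -0.32, Taf1a by -0.42, and the 18S 5′ set by -0.60.

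From 1 to 7 days, 6 ribosomal protein genes differed in the same way, with -0.37 for Rpl27a, -0.34 for Rpl22l1, -0.32 for Rps25, -0.20 for Rplp0, -0.16 for Rpl10a and -0.15 for Rps2. Rpsa differed by -0.18. In the pathway lists the differences were -0.21 for Btf3, -0.20 for Eef1b2, -0.26 for Hnrnpa1, -0.36 for Eif4ebp2, -0.17 for Rheb, 0.36 for Mlst8, -0.32 for Gnl3, -0.35 for Nhp2, -0.21 for Npm1, -0.22 for Sbds, 0.27 for Nob1, 0.42 for Taf1a, 0.30 for Taf1c and -0.36 for Twistnb. Of the 15 limma fits that left out 1 array, Rheb and Twistnb kept their call in only 2 and Taf1c in 3, with adjusted p up to 0.167. The other genes named from these lists kept theirs in 10 to 15. The shares called were 21.4% of the TOP list, 14.3% of assembly factors, 18.8% of RNA polymerase I genes and 16.7% of mTORC1, S6 kinase and Myc genes. Over all genes the share was 9.35%. The 18S 5′ and middle sets differed by -0.83 and -0.89. Groups held 3 arrays each, so single arrays were not tested as outliers.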

How the results depend on the processing

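The member medians kept their sign except at 14 days (-0.01 to 0.02), and counts of calls varied. The median immediately after noise stayed between -0.10 and -0.06 over 26 alternatives, and that at 1 day against control (0.06) between 0.0467 and, with sex as a term, 0.0933. The count of members called immediately after noise (1) was 0 without the filter, with the mean over probe sets, without the variance trend, with only the 2 groups, with equal 75th percentiles, with sex as a term and on female arrays, 2 with every probe set by itself and 7 with array weights. It ranged from 0 to 3 with 1 array left out. The count at 1 day against control (0) was 3 with array weights and 0 to 1 with 1 array left out. From the immediate to the 1-day time the count (15) was 7 without the trend, 21 with array weights, 13 to 18 under the other processing choices, and 6 to 19 with 1 array left out. From 1 to 7 days the count (6) was 11 with the lowest 50% left out, 10 with every probe set, 0 with only the 2 groups, 3 with sex, and 0 to 11 with 1 array left out. The F test's count (7) was 4 without the filter, 0 without the trend, 15 with array weights, 4 with equal 75th percentiles and 0 to 11 with 1 array left out. It was 0 without immediate array 2 or 3 or 1-day array 2 or 3, 2 without 1-day array 1, 4 without control array 2 or 14-day array 1 or 3, and 11 without 7-day array 3. The count at 1 day against control was 1 without control array 1 or without 7-day array 3.

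The 18S 5′ difference at 7 days, -0.91, did not pass without the trend (adjusted p = 0.0693) or with only the 2 groups (0.384), and ranged from -1.07 to -0.77 with 1 array left out. The middle set, -1.13, did not pass with only the 2 groups (0.135). At 14 days the 5′ set passed with sex as a term (-0.74, adjusted p = 0.0280), as did the middle set (-0.79, 0.0291), which ranged from -0.86 to -0.56 with 1 array left out and passed without control array 3 (-0.86, 0.0409). With the replicate block the counts were 1, 0, 0 and 0 against control, 16, 8 and 0 between consecutive times, and 7 by the F test, and no 18S call changed. Same-numbered arrays of different groups had deviations correlated from -0.33 to 0.30 over 30 pairs, 11 of them over 0.1, so the numbers were not taken as pairs. The 18S sets were, by contrast, highest on array 1 and lowest on array 3 in the control, 7-day and 14-day groups, and with the replicate block the 3′ set at 7 days still did not pass (-0.30). Of 4177 values of named genes under alternatives, 3762 kept direction and side of the threshold, among them values called in neither fit. Another 15 passed newly. Only values called at first could lose a call, and 318 did, so these counts give no share of calls kept. A further 82 changed sign, as did 6 values of the 18S sets. None of these 88 was called under either setting (lowest adjusted p = 0.554), and the original differences were at most 0.12 in size. Among differences printed above, Rpl7l1 at 14 days became -0.0578 with the mean over probe sets. For 18S, the 3′ set at 1 day (0.10) became -0.17 with sex as a term and -0.0333 to 0.23 with 1 array left out, the 5′ set at 1 day (-0.08) -0.21 to 0.0617, the 3′ set at 14 days (-0.09) -0.21 to 0.03, and the middle set immediately after noise (0.11) -0.0367 to 0.26. The causes were not tested. The number of arrays limits the precision.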
